A study of Mus musculus with 12 samples.

Results

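The genes described here encode the machinery through which fibroblasts sense TNF-α, IL-1 and IL-17A: the TNF receptors *Tnfrsf1a* and *Tnfrsf1b*; the IL-1 receptor *Il1r1*, its accessory chain *Il1rap*, the decoy receptor *Il1r2* and the receptor antagonist *Il1rn*; the IL-17 receptor chains *Il17ra* and *Il17rc*; and the adaptors *Traf3ip2* and *Myd88*. They were taken by gene symbol, with earlier results of these data known, and are 10 of the 56941 genes in the count table. RNA-seq was performed on 12 libraries of 3T3-L1 cells, a clonal, wild-type mouse embryonic fibroblast line able to differentiate into adipocytes and lacking the other cells of skin. The cells were cultured for 24 hours under 4 conditions with 3 libraries each. Control cells are labelled as given vehicle; IL-4/13 cells received 50 ng/mL each of IL-4 and IL-13; Inf cells received the inflammatory cocktail, made of IL-1β (0.5 ng/mL), TNF-α (20 ng/mL) plus 50 ng/mL of IL-17A; and IL-4/13 + Inf cells received both. All libraries carried 1 batch label. The question addressed was how the receptors for the 3 cytokines of the Inf cocktail were expressed after that cocktail, after IL-4/13, and after both.

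TNF-α binds TNFR1 (*Tnfrsf1a*), a broadly expressed receptor with a death domain, and TNFR2 (*Tnfrsf1b*), which lacks that domain and recruits TRAF proteins. IL-1 binds IL-1R1, which must pair with IL-1RAcP (*Il1rap*) before MyD88 can be recruited, whereas IL-1R2 captures IL-1 without signaling and the antagonist IL-1RA (*Il1rn*) occupies IL-1R1 without recruiting the accessory chain. IL-17A acts through a complex of IL-17RA and IL-17RC, to which the adaptor Act1 (*Traf3ip2*) binds. These pathways converge on NF-κB and induce chemokines and antimicrobial genes in dermal fibroblasts, and IL-17A also stabilizes the mRNA of many targets.

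Promoter sequence is shown for the 3 receptor or antagonist genes with the largest fitted rises after Inf. Each run is the 250 bases before an annotated start, 5′ to 3′ on the strand of the gene, from the RefSeq annotation of GRCm38.p6, with letters in capitals where a searched motif matched. For *Tnfrsf1b* (chr4:145246871-145247120, minus strand) the capitals mark TTCCCGGAA, a match to the STAT motif with a 3-base spacer, at bases -181 to -173 from the start. For *Il1rap* (chr16:26581455-26581704, plus strand) no searched motif matched. *Il1rn* has more than 1 annotated start: the upstream window (chr2:24336610-24336859, plus strand) holds the AP-1 match TGAGTCA at bases -141 to -135, and a window further downstream (chr2:24345041-24345290, plus strand) holds TTCCCAGGAA, a match to the STAT6 motif with a 4-base spacer, at bases -121 to -112.
Tnfrsf1b: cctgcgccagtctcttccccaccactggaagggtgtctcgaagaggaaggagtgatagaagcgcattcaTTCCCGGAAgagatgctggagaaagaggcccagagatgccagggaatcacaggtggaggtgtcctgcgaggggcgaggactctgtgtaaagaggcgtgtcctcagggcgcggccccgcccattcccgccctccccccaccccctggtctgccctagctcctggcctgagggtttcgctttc
Il1rap: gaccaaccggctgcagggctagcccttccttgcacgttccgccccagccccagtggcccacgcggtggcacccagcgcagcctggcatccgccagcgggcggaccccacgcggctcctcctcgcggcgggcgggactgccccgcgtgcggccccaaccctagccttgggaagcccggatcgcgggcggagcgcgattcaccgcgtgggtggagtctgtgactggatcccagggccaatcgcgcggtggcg
Il1rn, upstream start: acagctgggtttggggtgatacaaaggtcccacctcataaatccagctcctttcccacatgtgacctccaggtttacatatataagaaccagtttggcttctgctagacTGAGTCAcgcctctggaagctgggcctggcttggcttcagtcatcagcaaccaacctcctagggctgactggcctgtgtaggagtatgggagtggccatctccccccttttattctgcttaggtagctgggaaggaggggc
Il1rn, downstream start: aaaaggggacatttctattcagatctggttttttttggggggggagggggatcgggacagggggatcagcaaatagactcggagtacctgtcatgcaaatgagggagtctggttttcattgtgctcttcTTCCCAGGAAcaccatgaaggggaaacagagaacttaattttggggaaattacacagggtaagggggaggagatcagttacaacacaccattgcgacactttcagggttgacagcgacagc
Of the 10 genes, 8 had promoter windows, 11 in all; *Il17ra* and *Traf3ip2* had none in the table. Searching both strands, TTCNNNNGAA was found in windows of 1 of these 8 genes and in 5.85% of 32851 windows genome-wide. TTCNNNGAA was found for 4 of the 8, *Tnfrsf1a*, *Tnfrsf1b*, *Il1r2* and *Myd88*, and in 7.02% of all windows. TGANTCA was found for 1 of the 8 and in 6.75% of windows, and the NF-κB motif for 1 of the 8, *Il1r1*, and in 7.25%. The counts are of genes with a match in any of their windows, whereas the percentages are of single windows. These matches are descriptions of letters in short windows, and binding was not measured.

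Libraries held 13446005 to 20775769 counts assigned to genes. All 8 fibroblast markers were detected in every condition, while the hematopoietic, epithelial and endothelial lists were low or carried by a few genes. Among the 10 macrophage markers, 6 exceeded 3 counts in some library, and their summed level was 21.0 to 24.4 CPM (counts scaled to the library's size) in control, 24.2 to 26.3 under IL-4/13, 47.8 to 61.1 under Inf and 44.9 to 50.6 with both treatments. After Inf, *Cd14* rose from 14.86 to 44.7 CPM (log2 fold change 1.58, adjusted p = 1.5e-12) and *Aif1* from 0.737 to 2.20 CPM (1.57, adjusted p = 0.00064), and *Aif1* fell by 0.97 for both against Inf (adjusted p = 0.033). From control to Inf, *Csf1r* went from 3.54 to 2.64 CPM, *Cd68* from 1.01 to 1.08 and *Lyz2* from 2.89 to 3.17. *Ptprc* went from 0.080 to 0.022 CPM. *Tyrobp* was at 0 in every library, and *Adgre1*, *Fcgr1* and *Itgam* never exceeded 3 counts. *S100a8* alone of 7 neutrophil markers exceeded 3 counts, and the summed level of that list was at most 0.186 CPM without Inf and 2.12 to 2.44 CPM under Inf. Of 6 T cell markers *Trac* alone exceeded 3 counts, with 5 to 23 counts in each library, and *Cd3e*, *Cd3d*, *Cd3g* and *Cd8a* were at 0. The 6 epithelial markers, with *Epcam* and *Krt5* at 0, summed to at most 1.25 CPM, and *Krt8* held 1 to 2 counts in control, 10 to 14 under IL-4/13 and 0 under Inf. The 4 endothelial markers summed to 0.343 to 0.600 CPM in control and 0.584 to 1.58 CPM under Inf, where *Cdh5* rose from 2 counts in each control library to 10 to 22 counts (log2 fold change 2.73, adjusted p = 0.0013). The part of these genes in the results below was not tested. The adipocyte list summed to 19.7 to 24.2 CPM in control and 45.7 to 49.8 CPM under Inf, carried by *Fabp4* and *Lipe*, and its other 6 genes never exceeded 3 counts. The summed fibroblast markers ranged from 16560 to 19330 CPM in control and from 10310 to 10710 CPM with both treatments. In such bulk libraries a change in the number of expressing cells and in RNA per cell cannot be told apart. Nothing in the labels says that the 3 libraries of a condition came from separate cultures, so p-values measure the spread between these libraries.

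Inf raised 6 of the 9 tested genes, IL-4/13 raised 3, and no member was called lower by either treatment. A gene was called when edgeR's adjusted p was below 0.05 and the fitted log2 fold change exceeded 0.25 in size. Of the 10 members, 9 passed the filter on low counts; *Il1r2* did not. After Inf, 6 of 9 were higher, where 31.6% of all 14810 tested genes were called, 16.3% higher. IL-4/13 alone raised 3 of 9, *Il1r1*, *Il1rap* and *Il17rc*, where 5.35% of genes were called, 2.78% higher and 2.57% lower. IL-4/13 + Inf against control raised 7 of 9 (24.9% of genes called, 13.4% higher), and IL-4/13 + Inf against Inf raised 3 of 9, *Il1r1*, *Il1rap* and *Il1rn* (14.6% called, 7.55% higher). The median log2 fold change of the tested members was 0.075 after IL-4/13, 0.455 after Inf, 0.842 after both and 0.215 for both against Inf, whereas the medians of all tested genes lay between -0.01 and 0.007. The comparisons share libraries and are not independent of each other.

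**Figure D1:**
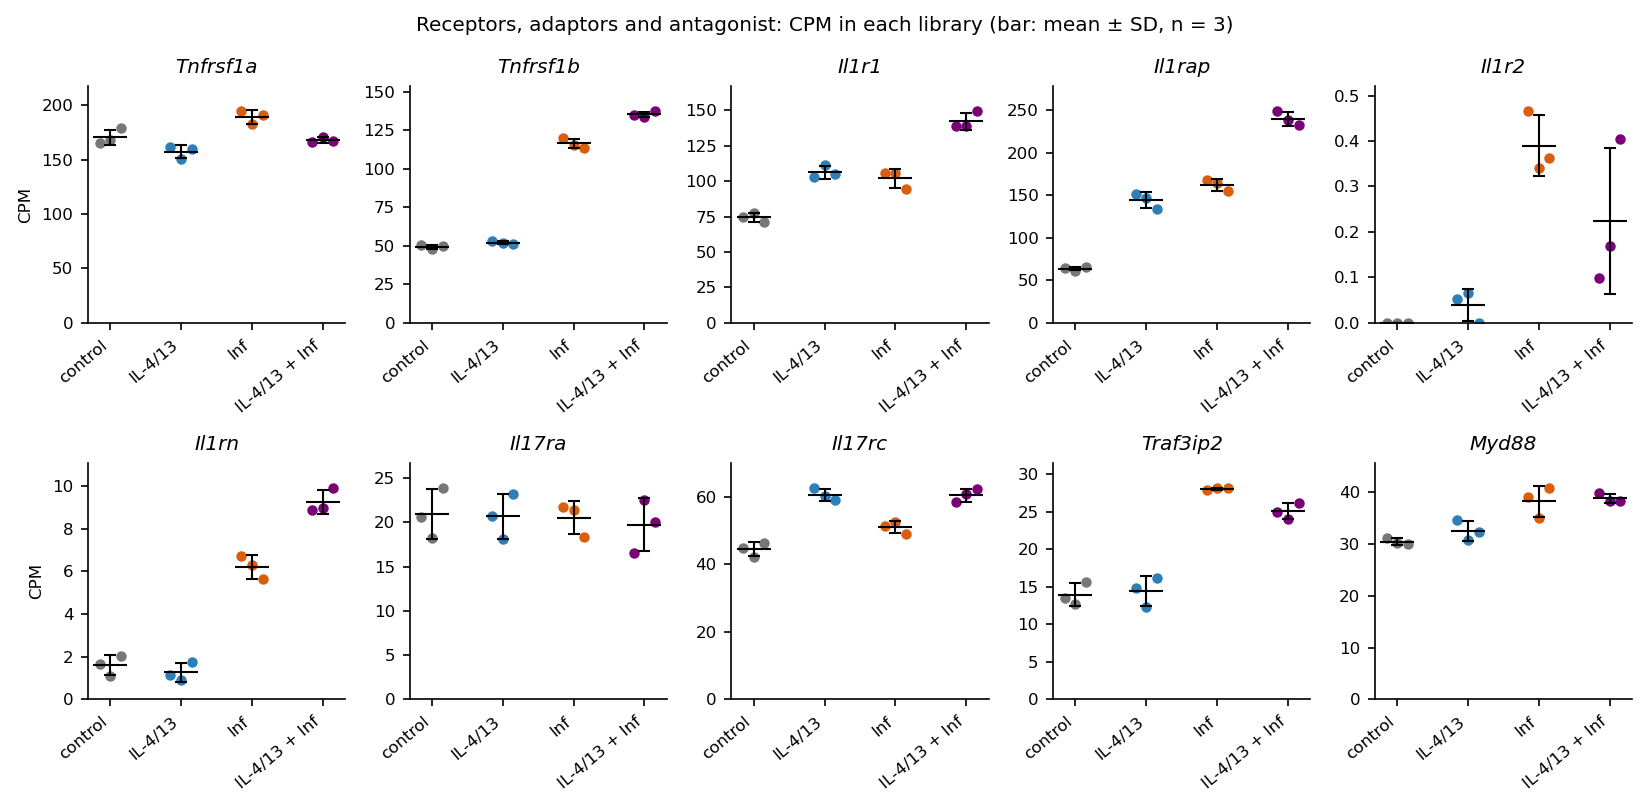
CPM of each of the 10 genes (vertical axis, starting at 0, separate scale per gene) in the 12 libraries, grouped by condition; points are libraries and bars are mean ± SD of 3. *Tnfrsf1b* steps up with Inf, *Il1rap* climbs from 63.76 CPM in control to 240.0 CPM with both treatments, and *Il17ra* averages 19.72 to 20.9 CPM.

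The receptors for TNF-α diverged: *Tnfrsf1b* more than doubled after Inf, while *Tnfrsf1a* stayed within the size threshold everywhere. *Tnfrsf1b* measured 50.51, 47.76 and 49.99 CPM in control, 52.99, 51.77 and 51.31 CPM under IL-4/13, 120.0, 115.8 and 113.8 CPM under Inf, and 134.8, 133.8 and 137.3 CPM with both treatments. The 4 conditions did not overlap, and the step with Inf was by far the widest. Against control, Inf raised *Tnfrsf1b* 2.36-fold (log2 fold change 1.24, SE 0.0509, adjusted p = 7.1e-19). Adding IL-4/13 to Inf gave a log2 fold change of 0.22 (adjusted p = 0.0011), short of the size threshold, and IL-4/13 alone gave 0.07 (adjusted p = 0.48). *Tnfrsf1a* averaged 170.5 ± 7.15 CPM in control, 157.3 ± 6.16 under IL-4/13, 189.2 ± 6.15 under Inf and 168.1 ± 2.70 with both treatments (SD, n = 3). Its log2 fold changes were 0.15 after Inf (adjusted p = 0.009) and -0.17 for IL-4/13 + Inf against Inf (adjusted p = 0.0067), both smaller than 0.25, and control and IL-4/13 + Inf libraries overlapped.

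Within a library, the ratio of *Tnfrsf1b* to *Tnfrsf1a* counts does not depend on library scaling. It averaged 0.290 in control, 0.331 under IL-4/13, 0.616 under Inf and 0.805 with both treatments. Scaled by the length of each gene's longest annotated transcript, it averaged 0.164, 0.187, 0.348 and 0.455 in the same order. Inf shifted this ratio by 1.185 on the log2 scale and IL-4/13 shifted it by 0.288 (0.19 without Inf, 0.386 with it), each with p = 0.005, the smallest the exact two-sided permutation test can give, and an adjusted p of 0.0075 over 6 ratio tests.

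The IL-1 receptor pair rose with either treatment, and the accessory chain moved more than the binding chain on average over both backgrounds. *Il1rap* measured 64.17, 61.47 and 65.66 CPM in control and 152.0, 147.1 and 133.9 CPM under IL-4/13. It measured 167.5, 165.0 and 154.7 CPM under Inf and 248.8, 238.5 and 232.7 CPM with both treatments. No condition overlapped another, and the order was control, IL-4/13, Inf and then both. IL-4/13 raised *Il1rap* 2.27-fold (log2 fold change 1.18, SE 0.0533, adjusted p = 9.9e-17), Inf raised it 2.55-fold (1.35, SE 0.053, adjusted p = 2.1e-19), and both raised it 3.76-fold over control (1.91, adjusted p = 2.2e-23). Adding IL-4/13 to Inf gave a further rise of 0.56 (SE 0.0494, adjusted p = 4.4e-10).

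*Il1rap* was the 1 member of the 9 tested that was called for a difference in its IL-4/13 response between cells with and without Inf (interaction -0.62 on the log2 scale, SE 0.0724, adjusted p = 1.6e-06; of all tested genes 3.11% were called for the interaction, 1.52% higher and 1.59% lower). The fold change was smaller with Inf on the log2 scale, whereas in CPM IL-4/13 added 80.6 to *Il1rap* without Inf and 77.58 with Inf, a difference of -3.018 (SE 8.273) that lay within the spread between libraries and carries no test. The opposite-strand gene *Gm20319* shares 6.84% of the 50-base words of *Il1rap* and averaged at most 0.226 CPM in any condition. *Il1rap* encodes membrane and soluble forms, which gene-level counts cannot separate.

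*Il1r1*, the chain that binds IL-1, measured 74.91, 77.47 and 70.88 CPM in control, 102.5, 111.3 and 104.7 CPM under IL-4/13, 106.0, 105.5 and 94.39 CPM under Inf, and 138.9, 138.6 and 149.1 CPM with both treatments. Either treatment alone placed all libraries above control, the IL-4/13 and Inf libraries overlapped each other, and the combination lay above both. The log2 fold change was 0.51 after IL-4/13 (SE 0.0559, adjusted p = 7.6e-08), 0.45 after Inf (SE 0.0557, adjusted p = 6.6e-08) and 0.93 after both (adjusted p = 6e-15). IL-4/13 added to Inf raised *Il1r1* by 0.48 (SE 0.0538, adjusted p = 6.1e-08), and the interaction was -0.03 with a 95% interval of -0.192 to 0.125.

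The ratio of *Il1rap* to *Il1r1* counts, not scaled by transcript length, averaged 0.859 in control, 1.361 under IL-4/13, 1.594 under Inf and 1.691 with both treatments. Inf shifted it by 0.604 on the log2 scale (0.895 without IL-4/13, 0.313 with it; exact permutation p = 0.005, adjusted p = 0.0075). IL-4/13 shifted it by 0.374 (0.664 without Inf, 0.083 with it; exact permutation p = 0.02, adjusted p = 0.024).

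The receptor antagonist and the decoy receptor of IL-1 were scarce in control cells. *Il1rn*, the secreted or intracellular antagonist, measured 1.657, 1.116 and 2.04 CPM in control, 1.125, 0.9071 and 1.764 CPM under IL-4/13, 6.712, 6.283 and 5.638 CPM under Inf, and 8.877, 8.994 and 9.921 CPM with both treatments. Control and IL-4/13 libraries overlapped, and both sets with Inf lay apart, the combination highest. Inf raised *Il1rn* 3.84-fold (log2 fold change 1.94, SE 0.208, adjusted p = 4.8e-09) and both treatments raised it 5.72-fold (2.52, adjusted p = 6.8e-12). IL-4/13 added to Inf raised it 1.49-fold (0.57, SE 0.162, adjusted p = 0.0098), while IL-4/13 alone gave -0.37 (SE 0.275, adjusted p = 0.49). The interaction of 0.95 (SE 0.32) did not pass (adjusted p = 0.11). Without IL-4/13 replicate 3 it was 1.22 (adjusted p = 0.047). The antagonist is also made by macrophages, of whose 10 markers *Cd14* and *Aif1* rose with Inf and 4 never exceeded 3 counts. From control to Inf, *Csf1r* went from 3.54 to 2.64 CPM, *Cd68* from 1.01 to 1.08 and *Lyz2* from 2.89 to 3.17. *Ptprc* went from 0.080 to 0.022 CPM. The part of these markers in the *Il1rn* values was not tested. Secreted and intracellular isoforms share the gene and were counted together.

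*Il1r2*, the decoy receptor, was close to undetected. The 3 control libraries held 0 counts, for which a floor of 3 counts per library was set, and the IL-4/13 libraries held 1, 1 and 0. The Inf libraries held 7, 7 and 6 counts and the IL-4/13 + Inf libraries 2, 3 and 6. Over each group, this came to 0.384 CPM under Inf (exact Poisson 95% interval 0.235 to 0.593) and 0.208 CPM with both treatments (0.104 to 0.373), against an upper bound of 0.0734 CPM in control. With the 3-count floor per control library as the reference, the mean *Il1r2* level of the Inf libraries was at least 2.18-fold above control. With both treatments, replicates 1 and 2 (0.0992 and 0.169 CPM) lay below that floor of 0.179 CPM and only replicate 3 (0.405 CPM) above it, so no fold is given. Intervals and floors cover counting error only. The Inf and IL-4/13 + Inf intervals overlapped, and a difference between these conditions was not detectable at this depth. With no filter on low counts, edgeR gave *Il1r2* an adjusted p of 0.00094 for Inf against control, 0.015 for both against control and 0.65 for both against Inf.

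The IL-17 receptor chains differed in their response to IL-4/13. *Il17ra*, the shared signaling chain, was not called in any comparison, and its libraries ranged from 18.23 to 23.89 CPM in control, 18.08 to 23.23 under IL-4/13, 18.37 to 21.73 under Inf and 16.56 to 22.54 with both treatments. Its libraries overlapped in every comparison. The log2 fold change after Inf was -0.03, with a 95% interval of -0.267 to 0.213 and an adjusted p of 0.88. *Il17rc*, the chain that gives the complex its specificity for IL-17A and IL-17F, measured 44.97, 42.18 and 46.39 CPM in control, 62.69, 60.19 and 59.1 under IL-4/13, 51.31, 52.7 and 49.11 under Inf, and 58.47, 60.77 and 62.36 with both treatments. All libraries with IL-4/13 lay above those without it, and IL-4/13 libraries overlapped the combination.

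*Il17rc* rose by 0.45 on the log2 scale after IL-4/13 (SE 0.0603, adjusted p = 3.9e-06) and by 0.44 after both (adjusted p = 4.6e-07). Inf gave 0.20 (adjusted p = 0.009) and IL-4/13 added to Inf gave 0.24 (SE 0.0591, adjusted p = 0.0027), each short of the size threshold. The latter reached 0.27 and was called without Inf replicate 2, and also without IL-4/13 + Inf replicate 1. The response of *Il17rc* to IL-4/13 was not called as different with Inf (interaction -0.20, adjusted p = 0.23). The ratio of *Il17rc* to *Il17ra* counts was 2.145 in control, 2.965 under IL-4/13, 2.496 under Inf and 3.109 with both treatments. Scaled by the length of the longest transcript, it was 7.225, 9.986, 8.404 and 10.47 in the same order. IL-4/13 shifted the ratio by 0.386 on the log2 scale (exact permutation p = 0.005, adjusted p = 0.0075), and Inf gave 0.144 (exact permutation p = 0.135).

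**Figure D2:**
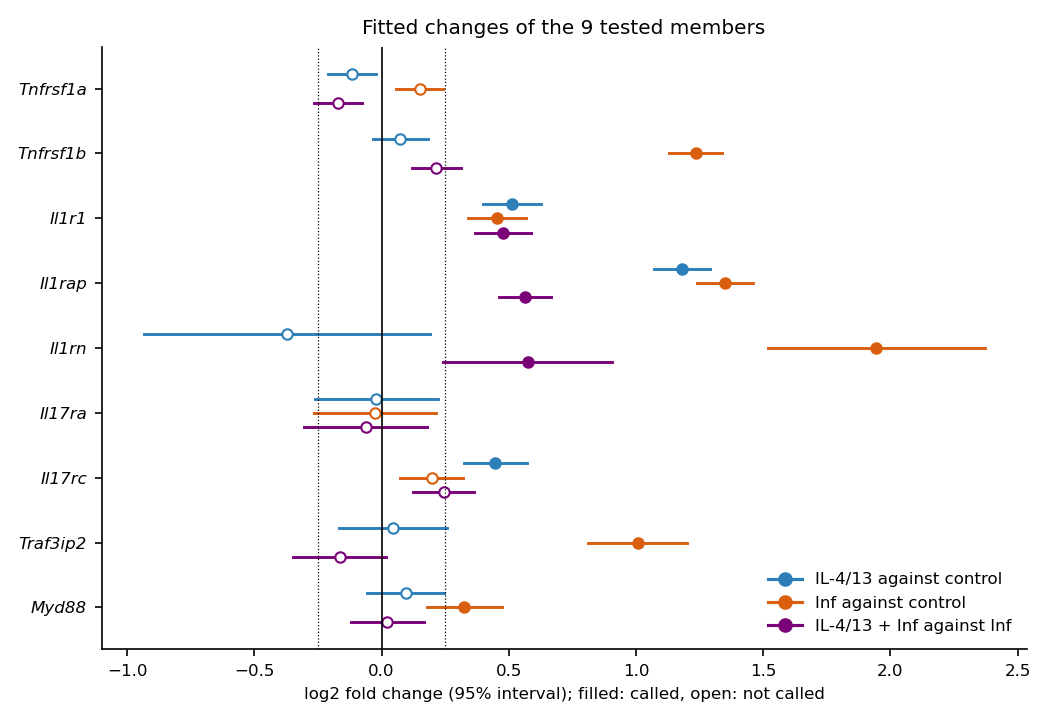
Fitted log2 fold changes (horizontal axis) of the 9 tested members with 95% intervals for either treatment against control, as well as for IL-4/13 + Inf against Inf; filled points passed both thresholds, and dotted lines mark 0.25 in either direction. *Il1rap* and *Il1r1* are filled in all 3 comparisons, while *Il17ra* and *Tnfrsf1a* are open throughout.

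Both adaptors rose after Inf, and neither was called for IL-4/13 alone. *Traf3ip2*, whose product Act1 carries the IL-17 receptor signal, measured 13.54, 12.65 and 15.66 CPM in control, 14.79, 12.31 and 16.17 under IL-4/13, 27.91, 28.15 and 28.07 under Inf, and 24.89, 24.06 and 26.18 with both treatments. Libraries with Inf lay far above those without it. The rise after Inf was 1.01 on the log2 scale (SE 0.0954, adjusted p = 3.7e-10), and after both 0.84 (adjusted p = 1.9e-08). IL-4/13 + Inf libraries lay below Inf libraries without overlap, but the log2 fold change of -0.16 did not pass (adjusted p = 0.2). An opposite-strand gene, *E130307A14Rik*, shares 6.96% of the 50-base words of *Traf3ip2* and was at 5.15 to 6.93 CPM on average in each condition.

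*Myd88*, the adaptor of the IL-1 receptor and most Toll-like receptors, averaged 30.49 ± 0.618 CPM in control, 32.54 ± 1.93 under IL-4/13, 38.3 ± 3.02 under Inf and 38.81 ± 0.879 with both treatments (SD, n = 3). Inf libraries lay above control libraries, and the Inf and IL-4/13 + Inf libraries overlapped. Its log2 fold change was 0.33 after Inf (SE 0.0724, adjusted p = 0.00049), 0.35 after both (adjusted p = 0.00026) and 0.02 for both against Inf (adjusted p = 0.86). *Acaa1a*, on the opposite strand, shares 7.26% of the 50-base words of *Myd88* and averaged 45.3 CPM in control and 66.6 CPM under Inf. The strand setting of the counting is not given in the sources used here, and the part of *Acaa1a* reads in the *Myd88* counts was not tested.

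Non-overlap was also counted, in place of fitted change and in either direction. Treated and reference libraries were separate for 5 of 9 tested members for IL-4/13 against control (26.4% of all tested genes). The count was 8 of 9 for Inf against control (48.0%), 7 of 9 for both against control (46.2%) and 7 of 9 for both against Inf (35.1%). Separate members lay higher, except *Tnfrsf1a* for IL-4/13 against control and *Tnfrsf1a* and *Traf3ip2* for both against Inf, which lay lower.

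To set genes side by side, CPM was divided by the length in kb of the longest annotated transcript. On this scale *Tnfrsf1a* led every condition, at 79.07 CPM per kb in control, 72.97 under IL-4/13, 87.75 under Inf and 77.96 with both treatments. In control it was followed by *Il17rc* at 19.34 and *Il1rap* at 14.11 CPM per kb, then by *Tnfrsf1b* (12.94), *Il1r1* (12.79) and *Myd88* (12.4), whose libraries overlapped. *Traf3ip2* (4.867), *Il17ra* (2.696), *Il1rn* (0.628) and *Il1r2* (0) completed the order. In IL-4/13 + Inf, *Il1rap* was second at 53.09 CPM per kb and *Tnfrsf1b* next at 35.44, ahead of *Il17rc* (26.29) and *Il1r1* (24.43), whose libraries overlapped. The lower places there went to *Myd88* (15.79), *Traf3ip2* (8.736), *Il1rn* (3.627), *Il17ra* (2.543) and *Il1r2* (0.158). After IL-4/13 alone the order behind *Tnfrsf1a* was *Il1rap* (31.94), *Il17rc* (26.35), *Il1r1* (18.24) and then *Tnfrsf1b* (13.63) and *Myd88* (13.24), which overlapped. After Inf it was *Il1rap* (35.93), *Tnfrsf1b* (30.53), *Il17rc* (22.17) and then *Il1r1* (17.52) and *Myd88* (15.58), which overlapped. *Il1rn* lay below *Il17ra* in control and above it with both treatments. The position of *Il1rap* depends on the length used, 4520 bases for its longest transcript against 11360 for its merged exons, and with merged exons it lay below *Tnfrsf1b*, *Il17rc* and *Il1r1* in all 4 conditions. *Il1rn* was then below *Il17ra* in all 4.

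**Figure D3:**
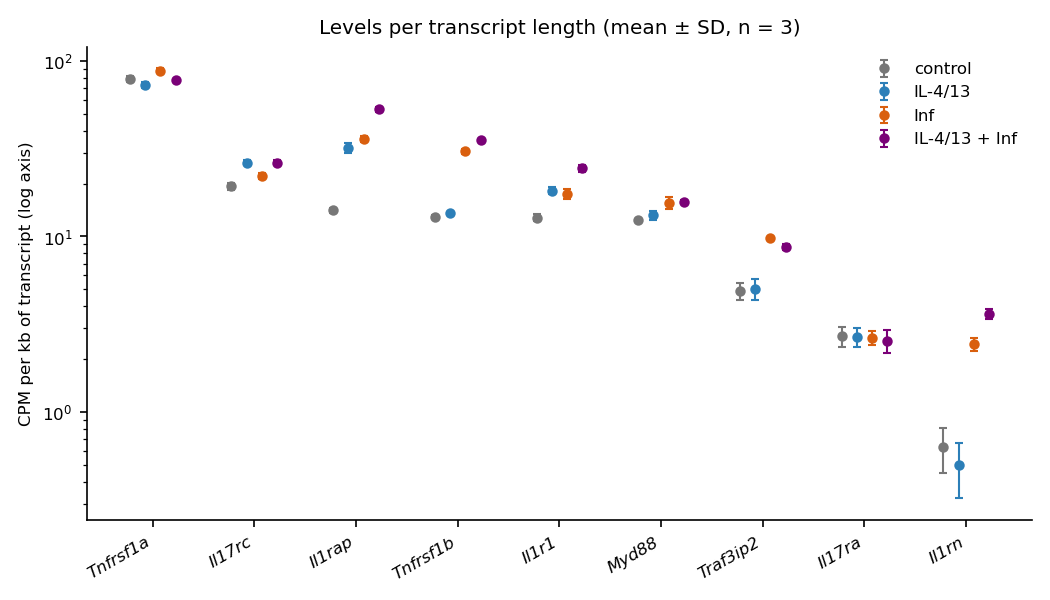
CPM per kb of longest transcript (vertical axis, log scale) for 9 members in each condition, mean ± SD of 3 libraries; *Il1r2* is left out because it was at 0 in control. *Tnfrsf1a* lies highest throughout at 72.97 to 87.75, and *Il1rn* spans the widest range, 0.4955 to 3.627.

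A wider set of 82 genes of the same pathways was examined by list, of which 64 were tested. Inf raised 27 and lowered 5 of the 64 (31.6% of all tested genes called, 16.3% higher and 15.3% lower). Adding IL-4/13 to Inf raised 4 and lowered 11 (14.6% called, 7.55% higher and 7.00% lower). These shares by direction also apply to the lists below, where only the share called in either direction is repeated. After IL-4/13 alone, 3 were higher and 5 lower (5.35% of all tested genes called, 2.78% higher and 2.57% lower), and these 8 calls were 5 without IL-4/13 replicate 1. The median log2 fold change of these genes was 0.104 after Inf and 0.011 for both against Inf.

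Among 10 ligand genes only *Il1a* and *Lta* were tested. *Il1a*, encoding IL-1α, had at most 1 count in any control library and averaged 56.33 ± 1.47 CPM under Inf and 42.76 ± 3.05 CPM with both treatments (SD, n = 3), at least 314-fold and at least 239-fold above the 3-count floor per control library. With IL-4/13 it fell by 0.40 from its Inf level on the log2 scale (adjusted p = 0.00025). The ligands given in the cocktail were close to absent as transcripts: *Tnf* reached at most 3 counts, *Il1b* at most 4 and *Il17a* 0 in any library.

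Of the other IL-1 and IL-17 family receptors, 6 of 10 were tested. After Inf, 3 were higher and 1 lower (31.6% of all tested genes called). For both against Inf, 2 were higher and 1 lower (14.6% of all tested genes called). *Il1rl1*, which encodes the IL-33 receptor ST2 and pairs with the *Il1rap* product, averaged 549.1 ± 24.9 CPM in control, 1323.0 ± 39.3 under IL-4/13, 881.8 ± 43.7 under Inf and 1930.0 ± 40.7 with both treatments. Its log2 fold change was 1.27 after IL-4/13 (adjusted p = 4.8e-20), 0.68 after Inf (adjusted p = 1.3e-14) and 1.13 for both against Inf (adjusted p = 6.4e-19). *Il1rapl1*, at 2.591 CPM in control, fell by 1.63 after Inf (adjusted p = 9.7e-05), and *Il1rl2*, the IL-36 receptor, fell by 0.27 when IL-4/13 was added to Inf (adjusted p = 0.0058). The latter call was lost without Inf replicate 2 and without IL-4/13 + Inf replicate 2. *Il17rd* averaged 14.07 CPM in control, 10.3 under IL-4/13, 16.29 under Inf and 19.35 with both treatments, and its response to IL-4/13 was higher with Inf (interaction 0.69, SE 0.162, adjusted p = 0.0098).

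Of 12 Toll-like receptors, most of which signal through MyD88, 6 were tested. After Inf, 4 were higher and 1 lower (31.6% of all tested genes called). For both against Inf, 0 were higher and 1 lower (14.6% of all tested genes called). *Tlr2*, a sensor of bacterial lipoproteins, averaged 39.3 ± 2.04 CPM in control, 37.46 ± 3.87 under IL-4/13, 287.6 ± 12.2 under Inf and 140.2 ± 5.87 with both treatments. Addition of IL-4/13 to Inf lowered *Tlr2* by 1.03 on the log2 scale (SE 0.0543, adjusted p = 5.2e-15), and the interaction was -0.96 (SE 0.0859, adjusted p = 7.4e-09). *Tlr4*, the lipopolysaccharide receptor, rose with IL-4/13 alone (0.72, adjusted p = 6.6e-06) and with Inf (1.14, adjusted p = 3.3e-11), with an interaction of -0.53 (adjusted p = 0.019). *Tlr7* rose by 3.39 after Inf (SE 0.6, adjusted p = 3.9e-05) from 6, 2 and 0 counts in the control libraries to 42, 38 and 10 in the Inf libraries. The value was 4.68 without control replicate 1 and 2.84 without control replicate 3. The fall of *Tlr1* after Inf (-0.60, adjusted p = 0.047) held in 4 of 12 fits that each left out 1 library and was lost under DESeq2, with no filter and with only the compared libraries fitted.

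All 18 genes of the TNF receptor complex were tested. After Inf, 7 were higher and 2 lower (31.6% of all tested genes called). For both against Inf, 1 was higher and 1 lower (14.6% of all tested genes called). *Traf1*, a TNFR2-binding adaptor, rose by 3.15 (SE 0.197, adjusted p = 2.6e-14) and by a further 0.47 with IL-4/13 (adjusted p = 0.0098; lost without Inf replicate 2, or without IL-4/13 + Inf replicate 2 or 3, with adjusted p up to 0.063), while *Traf5* fell by 0.60 after Inf (adjusted p = 0.00011). *Tnfaip3*, encoding the NF-κB inhibitor A20, rose by 2.78 after Inf (adjusted p = 3.5e-22), and IL-4/13 lowered it by 0.42 in the presence of Inf (SE 0.0698, adjusted p = 3.3e-05).

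Of the 15 IL-1 receptor complex genes, all tested, 3 rose and 0 fell after Inf (31.6% of all tested genes called). For both against Inf, 0 rose and 2 fell (14.6% of all tested genes called). *Irak3*, the inhibitory kinase IRAK-M, rose by 1.82 after Inf (SE 0.247, adjusted p = 4.2e-07). *Peli3*, an E3 ligase of this pathway, fell by 0.79 when IL-4/13 was added to Inf (SE 0.187, adjusted p = 0.0023). *Peli3* averaged 1.906 CPM in control, 1.324 under IL-4/13, 6.035 under Inf and 3.48 with both treatments, and was called above control in the latter 2. Among the 11 IL-17 signaling genes, 6 rose and 0 fell after Inf (31.6% of all tested genes called). For both against Inf, 1 rose and 4 fell (14.6% called). *Zc3h12a*, encoding the RNase Regnase-1, which degrades inflammatory mRNAs, rose from 11.93 ± 1.57 to 222.6 ± 6.08 CPM (SD, n = 3; log2 fold change 4.22, adjusted p = 1.5e-28). *Cebpb*, a transcription factor induced by IL-17, averaged 62.9 ± 8.88 CPM under Inf and 43.5 ± 2.15 CPM with both treatments, a fall of 0.53 (adjusted p = 0.00018). *Traf3*, which restrains IL-17 receptor signaling, rose by 0.32 for both against Inf (adjusted p = 0.00033), a call lost without Inf replicate 3. Receptor shedding genes govern how much TNF receptor is cleaved from the surface. Of 6 such genes, 3 rose and 1 fell after Inf (31.6% of all tested genes called). For both against Inf, 0 rose and 1 fell (14.6% called). *Rhbdf2*, encoding the iRhom2 partner of the sheddase ADAM17, rose by 1.5 (SE 0.0685, adjusted p = 1.1e-17). *Timp3*, encoding the ADAM17 inhibitor, fell by 1.93 after Inf (SE 0.081, adjusted p = 2.7e-18) and by 0.67 with IL-4/13 on top (SE 0.0954, adjusted p = 4.2e-06).

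**Figure D4:**
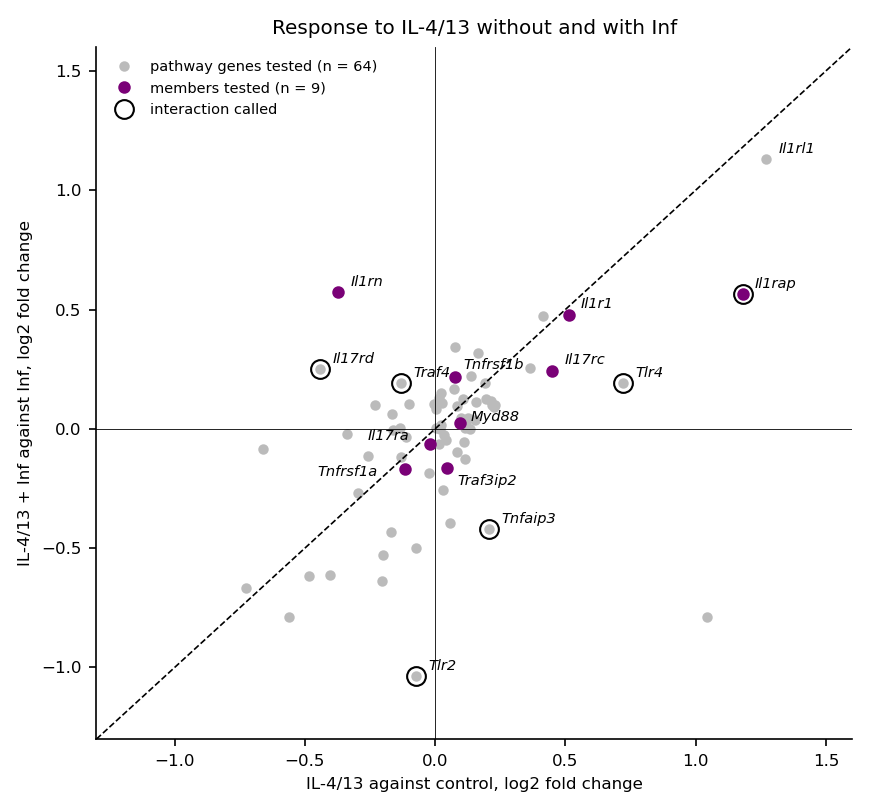
Log2 fold change of IL-4/13 against control (horizontal axis) against that of IL-4/13 + Inf against Inf (vertical axis) for the 9 tested members and 64 tested pathway genes; the dashed line marks equal responses and rings mark genes called for the interaction. *Il1rap* lies below the line at 1.18 and 0.56, *Il1r1* lies on it at 0.51 and 0.48, and *Tlr2* lies furthest below zero among the ringed genes.

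For the 4 members whose condition means spanned more than 1 on the log2 scale, the genes with the most alike profiles over the 4 condition means were sought by Euclidean distance of centred log2 CPM. Nearest to *Tnfrsf1b* were *Zdhhc2* (distance 0.0695), *Ifi44* (0.0806) and *Slfn8* (0.0899). Nearest to *Il1rap* were *Slco4a1* (0.145), *Nfkb1* (0.23), which encodes a subunit of NF-κB, and *Ccbe1* (0.242). Nearest to *Il1rn* were *Slc2a6* (0.198), *Rab32* (0.277) and *Zbtb7c* (0.3), at wider distances than for *Tnfrsf1b*. Nearest to *Traf3ip2* were *Wdr97* (0.0381), *Zbtb38* (0.0422) and *Abcc4* (0.0478).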

How the data were processed

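Polyadenylated RNA was sequenced from 12 stranded mRNA libraries of 3T3-L1 cells, 3 for each of 4 conditions. The authors deposited raw read counts per gene for 56941 genes; their processing notes name STAR, featureCounts and the GRCm39 build, without versions. Counting strand and annotation are not given in the sources used here, so reads of overlapping opposite-strand genes may be shared. Cytokine doses and the culture time come from a figure legend of the study, and groups from the labels.

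Counts were filtered with filterByExpr (minimum count 10, minimum total 15), which left 14810 genes, scaled by TMM and fitted over all 12 libraries with the quasi-likelihood test of edgeR 4.0.16 (robust) in R 4.3.3. P-values were adjusted by Benjamini-Hochberg over all tested genes. CPM used TMM-scaled library sizes. The thresholds, adjusted p below 0.05 and log2 fold change beyond 0.25, are those of the study's pseudobulk analysis. The interaction is the IL-4/13 effect with Inf minus that without. Within-library ratios added 0.5 counts to each gene and were tested by relabelling within strata. Transcript lengths and shared 50-base words came from a GRCm38 annotation, promoters from RefSeq GRCm38.p6. DESeq2 1.42.0 was an alternative, and the test was checked on simulated counts.

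The text names all members and, per pathway list, the called genes with the largest rise and fall after Inf and for both against Inf, plus those called for the interaction; *Lta*, *Tnf*, *Il1b*, *Il17a* and the marker genes named were added after their values were seen. Members and lists were chosen with earlier results of these data known. Of the gene rows, 23268 carry no symbol in the deposited table. Libraries held 13446005 to 20775769 counts, and genes with few counts carry the widest relative error.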

Additional observations from a re-analysis of the deposited data

Results flagged for a closer look

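The response to IL-4/13 differed between cells with and without Inf, by the edgeR interaction test, for 1 member and 5 pathway genes, while 3.11% of all tested genes were called in that test. For *Il1rap*, the accessory chain of the IL-1 receptor, the interaction was -0.62 on the log2 scale, with rises in CPM that were nearly equal (80.6 and 77.58). *Il17rd*, a receptor of the IL-17 family, had an interaction of 0.69, and *Traf4*, a TRAF adaptor, had 0.32. The interaction was -0.96 for *Tlr2*, -0.53 for *Tlr4* and -0.63 for *Tnfaip3*. When 1 library at a time was left out, the call for *Tlr4* held in 8 of 12 fits (lost without IL-4/13 replicate 1 or 3, Inf replicate 2 or IL-4/13 + Inf replicate 1; -0.66 to -0.46, adjusted p up to 0.092). That for *Traf4* held in 7 of 12 (lost without control replicate 2, IL-4/13 replicate 1, Inf replicate 2 or IL-4/13 + Inf replicate 2 or 3; 0.26 to 0.37, adjusted p up to 0.091).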

How the results depend on the processing

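Raising the log2 fold change threshold to 1 left 1 member called for IL-4/13 against control, 3 for both against control, 0 for both against Inf and 0 for the interaction, and among pathway genes 1, 20, 2 and 0 in the same comparisons and 18 for Inf against control (8, 33, 15, 5 and 32 at 0.25). For Inf against control the threshold of 1 left 4 of 6 members. With no size threshold, 8 members were called for Inf against control, where *Tnfrsf1a* and *Il17rc* joined. For both against Inf there were 6, where *Tnfrsf1a*, *Tnfrsf1b* and *Il17rc* joined. The share of all tested genes called was computed only at 0.25, so counts at the other size thresholds have no background to be set against. With no filter on low counts *Il1r2* was called for Inf and for both against control, which made 7 and 8 members. For the 9 tested members, DESeq2, its size factors, no filter, a mean of at least 50 counts, fits of only the compared libraries and the replicate block changed no call; DESeq2 gave no adjusted p for 1 *Il1rn* value. Replicate numbers did not pair the libraries (correlations of same-numbered libraries -0.146 to 0.054; 0 of 12 libraries closest to their own number), and the fit with the replicate block left the member counts at 3, 6, 7, 3 and 1 and ended the calls of 2 pathway genes, *Tradd* after IL-4/13 and *Tlr1* after Inf.

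Leaving out 1 library at a time, members called ranged from 3 to 3 (IL-4/13), 6 to 6 (Inf), 7 to 7 (both), 3 to 4 (both against Inf) and 1 to 2 (interaction; 2 without IL-4/13 replicate 3, which adds *Il1rn*), and pathway genes from 5 to 9 (lowest without IL-4/13 replicate 1), 31 to 34, 33 to 36, 12 to 16 and 3 to 5 (lowest without IL-4/13 replicate 1). Sign changed in values that were never called: *Il17ra* ranged from -0.105 to 0.0843 after IL-4/13, -0.108 to 0.0818 after Inf, -0.199 to 0.0367 after both, -0.176 to 0.0577 for both against Inf and -0.157 to 0.0761 for the interaction; *Traf3ip2* after IL-4/13 from -0.0354 to 0.144; *Tnfrsf1a* after both from -0.0361 to 0.0146; *Myd88* for both against Inf from -0.0405 to 0.076; and the *Il1r1* interaction from -0.0798 to 0.000339. The cause was not tested. Ratio shifts kept their side of the threshold in all fits, and levels per kb moved in 29 values with merged exon lengths and in 1 with DESeq2 size factors. DESeq2 size factors moved the median of all genes by at most 0.0018, and dropping the filter on low counts moved it by at most 0.0085. Depth limits *Il1r2* and the lower values of *Il1rn*.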
